A study of Mus musculus with 4 samples.

Results

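Basement membrane genes were followed in mouse embryonic stem (ES) cells, in 3 Morc3 rescue clones and 1 wild-type culture. The genes encode the laminin chains Lama1, Lama3, Lama5, Lamb1 and Lamc1, the collagen IV chains Col4a1 and Col4a2, nidogen 1 (Nid1), perlecan (Hspg2) and Sparc. They were taken by symbol as 10 of the 24054 gene rows in the count tables, and all 10 were among the 13267 genes with enough counts to be tested.

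A basement membrane is a thin sheet of extracellular matrix that lies under epithelia. Laminins are trimers of an alpha, a beta and a gamma chain that assemble into a network on the cell surface, and collagen IV, a trimer of Col4a1 and Col4a2 products in its commonest form, builds a covalently cross-linked scaffold. Nidogens bind laminin and collagen IV and link both layers, perlecan is a heparan sulfate proteoglycan of the same sheet, and Sparc is a secreted glycoprotein that binds collagen. In the early mouse embryo the primitive endoderm and its parietal descendants deposit large amounts of these proteins, and ES cells make several of the same chains.

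The wild-type library came from the ES cell line wt26. The rescue clones T131-3C, T131-3D and T131-3M, called 3C, 3D and 3M here, each grew from a single cell of 1 Morc3 ko clone that had been made from wt26 with CRISPR-Cas9, after transfection of a PiggyBac transposon with Morc3 cDNA and puromycin selection. All clones therefore shared the ko background, the transgene and the selection, and the wild-type culture had none of these. All cultures were feeder-independent and were grown on gelatin with serum and LIF, the cytokine that keeps ES cells undifferentiated. The comparison asks whether expression after return of Morc3 matched that of wild type. Morc3 ko libraries were not analysed here, so a difference between rescue and wild type cannot be assigned to the ko or to the return of Morc3.

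Genes received 18789457 read pairs in the wild-type library and 13620914 to 15479190 in those of the clones. Relative to everything sequenced, this was 52.7% for wild type and 45.1% to 47.0% for the clones. The replicates are sister clones, wild type has 1 library that is assumed to vary as the clones do, and every clone is compared with that same library. Morc3 itself had 161 CPM in wild type and 655, 497 and 609 CPM in 3C, 3D and 3M, where CPM is a gene's count relative to library size, after scaling by edgeR's TMM method. Its counts include transcripts of the ko allele and of the transgene, which the tables do not separate. The pluripotency gene Pou5f1 had 766 CPM in wild type and between 698 and 756 CPM in the clones, whereas the endoderm regulator Gata6 stayed between 0.074 and 0.47 CPM and Sox17 between 0 and 0.21 CPM. These single genes do not stand for their marker lists. All 27 endoderm markers summed to 147 CPM in wild type and 220, 143 and 209 CPM in 3C, 3D and 3M. The median log2 fold change of the clones against wild type was 0.52 over the 17 tested endoderm markers and 0.06 over 17 pluripotency genes.

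The Lama5, Hspg2 and Nid1 promoters are shown because these genes were above wild type in every clone and the stretch before their start site is free of annotated exons. The promoter table, from RefSeq on GRCm38.p6, the assembly of mm10, held 7 of the 10 genes (Lama5, Hspg2, Col4a1, Col4a2, Sparc, Lamb1 and Nid1). The 98 bases run 5′ to 3′ on the strand of the gene, from position -150 to position -53 from the start site in the promoter table. That site is base 180225859 for Lama5, 137468803 for Hspg2 and 13437602 for Nid1. The RefSeq genes Lama5 and Hspg2 begin further upstream, at bases 180225904 and 137468751. By those starts, their windows lie nearer to the gene than the positions given here. They lie at chr2:180225912-180226009 on the minus strand for Lama5, chr4:137468653-137468750 on the plus strand for Hspg2 and chr13:13437452-13437549 on the plus strand for Nid1. Capitals mark matches to the motifs searched.
Lama5: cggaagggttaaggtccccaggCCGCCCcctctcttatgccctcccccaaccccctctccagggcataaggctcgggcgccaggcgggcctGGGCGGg
Hspg2: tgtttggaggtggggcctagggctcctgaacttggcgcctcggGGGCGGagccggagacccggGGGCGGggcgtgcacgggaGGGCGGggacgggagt
Nid1: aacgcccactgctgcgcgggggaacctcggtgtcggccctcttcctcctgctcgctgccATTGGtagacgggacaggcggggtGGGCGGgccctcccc
The motifs were the GC box (GGGCGG), the CCAAT box (CCAAT), the GATA site (AGATAA or its variant AGATAG, and likewise TGATAA or its variant TGATAG) and the SOX core (ACAAT), each on both strands, and none of the matches overlapped another. The GC box occurred 2 times in Lama5, 3 times in Hspg2 and 1 time in Nid1, and Nid1 also held a CCAAT box on the opposite strand, from -91 to -87. Of 32851 RefSeq windows of the same length, 18.4% held a GC box, 17.7% a CCAAT box, 11.5% a GATA site and 12.3% a SOX core. The window of Lamb1 held 2 GC boxes and that of Col4a1 a CCAAT box, while those of Col4a2 and Sparc held no match. GATA and SOX letters were in none of the 7 windows. These matches describe the letters and are not evidence of binding.

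Col4a1 and Col4a2 are neighbours on opposite strands, and their annotated first exons overlap head to head. The stretch between their start sites in the promoter table, which lies inside both of these exons, is shown because the pair varied together between the clones. The RefSeq gene Col4a1 reaches further right, to base 11312889. The stretch shown spans 22 bases at chr8:11312805-11312826 and reads on the plus strand as follows.
Col4a1 and Col4a2: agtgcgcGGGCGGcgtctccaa
Capitals mark its 1 GC box. It was searched for the same motifs and held no other match. By these start sites, Col4a1 is transcribed leftwards from base 11312826 and Col4a2 rightwards from base 11312805. Read pairs were counted by strand, so the pair could be told apart.

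Against wild type, 6 of the 10 genes were higher in all 3 clones (Lama3, Lama5, Lamc1, Nid1, Hspg2 and Sparc), and none was lower in all 3. The highest log2 fold changes were those of Nid1 (0.60) and Sparc (0.52). Col4a1 and Col4a2 did not follow these genes: they were above wild type in 3C and below it in 3D and 3M. Over all genes tested, 28.7% were higher in every clone and 28.4% were lower in every clone.

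No basement membrane gene passed an adjusted p of 0.01 in the quasi-likelihood test of edgeR (Benjamini-Hochberg adjustment over all genes), which called 1 of the 13267 genes, or 0.00754%. At an unadjusted p under 0.05 the test picked 5 of the 10, all of them higher in the clones (Lama5, Lamc1, Nid1, Hspg2 and Sparc), where the share over all genes was 10.3%. DESeq2's Wald test called none of the 10, of which Lama3 was given no adjusted p, and 0.658% of the 9727 genes with an adjusted p. Even Morc3, at a log2 fold change of 1.87, was not called by edgeR, whereas DESeq2 called it. The absence of a call therefore does not show equal expression. The median log2 fold change of the 10 genes was 0.22, with medians of 0.29, 0.18 and 0.23 in 3C, 3D and 3M, beside 0.0051 over all genes tested, whose quartiles were -0.14 and 0.16. A fit without 3D rests on 3C, 3M and the 1 wild-type library, and 3C and 3M were the clones most alike over all genes. Clone 3D decided the calls: without it, edgeR called Lama5, Nid1 and Sparc, and 3.17% of all genes.

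**Figure D1:**
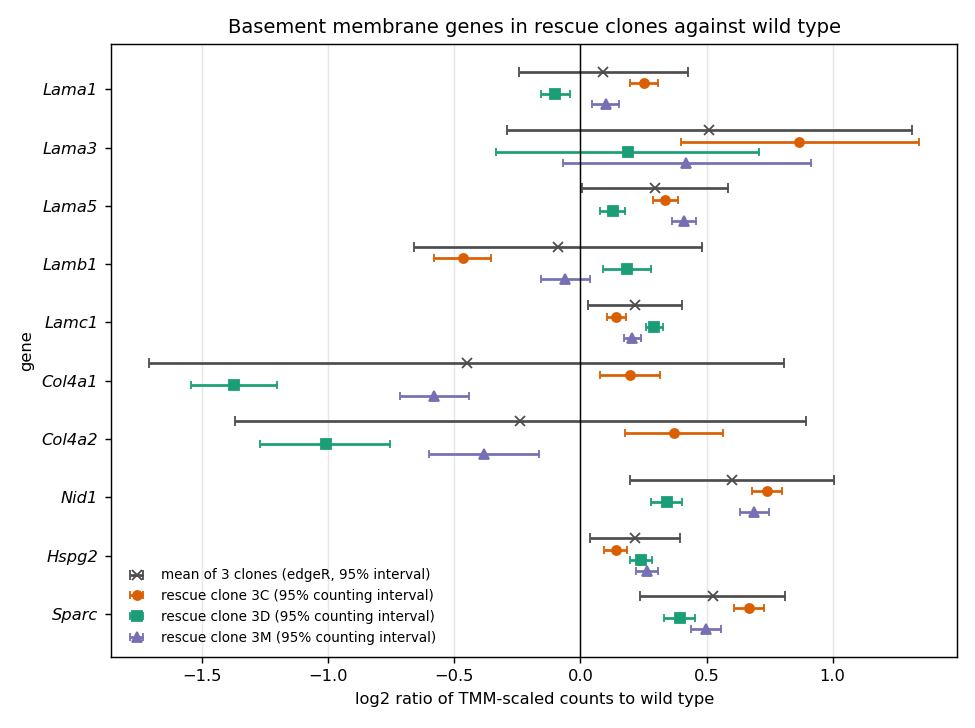
Log2 ratio of TMM-scaled counts to wild type for each basement membrane gene (rows) in clones 3C, 3D and 3M, with exact 95% intervals that cover counting error only, and the edgeR log2 fold change of the 3 clones with its 95% interval (crosses). Lama3, Lama5, Lamc1, Nid1, Hspg2 and Sparc have all 3 clones to the right of 0, and Col4a1 and Col4a2 spread from right of 0 in 3C to far left of it in 3D.

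Levels can be compared between genes only per length, here as CPM per kb of merged exons. Lamc1, the only gamma chain of the group and part of most laminins, was the most abundant, at 87.2 CPM per kb in wild type and 101 ± 5.34 (SD, n = 3) in the clones. Sparc came next, with 57.4 in wild type and 82.6 ± 8.03 CPM per kb in the clones, then Nid1, with 32.8 and 49.7 ± 7.12. The clone ranges of Lamc1 and Sparc did not overlap, while the lowest clone of Nid1 (41.6) lay below the highest of Lama5 (42.3). Hspg2, Lama5 and Lama1 formed a group at 37.9 ± 1.70, 39.1 ± 3.88 and 34.1 ± 4.14 CPM per kb in the clones, and their ranges overlapped. Lamb1 at 9.59 ± 2.12, Col4a1 at 6.46 ± 3.38 and Col4a2 at 3.07 ± 1.46 CPM per kb followed, also with neighbouring ranges that overlapped. Lama3 was lowest at 0.48 ± 0.12 CPM per kb. The order in wild type was the same except among Hspg2, Lama1 and Lama5, which lay between 31.9 and 32.6 CPM per kb, just under Nid1. With the longest transcript as length, Sparc passed Lamc1 in the clones.

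**Figure D2:**
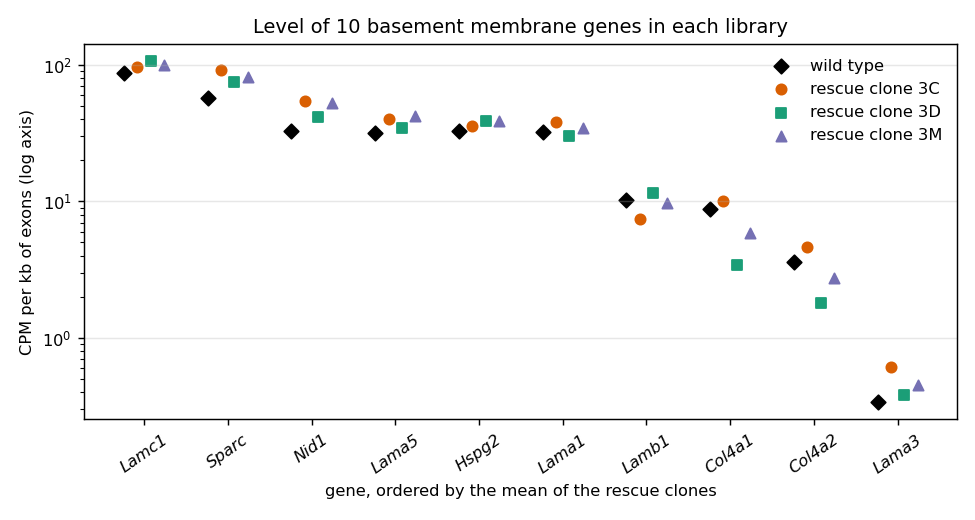
Level of each basement membrane gene in CPM per kb of exons (log axis) in wild type (black diamonds) and in each rescue clone, with genes ordered by the mean of the clones. Levels range from about 100 CPM per kb for Lamc1 to under 1 for Lama3, and the clones differ most for Col4a1 and Col4a2.

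Of the laminin alpha chains, which carry the main binding sites for cell surface receptors, Lama1 belongs to the first laminin of the embryo, and Lama5 to the laminin on which ES cells attach well. Lama5 (mm10, chr2:180176373-180225904, minus strand) had 363 CPM in wild type and 458, 396 and 482 CPM in 3C, 3D and 3M. All 3 clones were above wild type, with a log2 fold change of 0.30 (SE 0.12, 95% interval 0.0070 to 0.59, edgeR adjusted p = 0.48). Lama1 (chr17:67697127-67822645, plus strand) had 310 CPM in wild type and 370, 290 and 333 CPM in the clones, so that wild type lay inside the range of the clones, and its log2 fold change was 0.09 (SE 0.13, 95% interval -0.24 to 0.43). Without clone 3D the change of Lama5 was 0.37 and passed the test (adjusted p = 0.0052 from edgeR).

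Within a library the ratio of both alpha chains does not depend on scaling. Per kb, Lama1 counts were 1.01 times those of Lama5 in wild type (95% interval 0.972 to 1.04 for counting error), 0.949 times in 3C (0.914 to 0.985), 0.860 in 3D (0.826 to 0.895) and 0.812 in 3M (0.783 to 0.841). The ratio was thus lower in each clone than in wild type, with counting intervals that met wild type's in 3C and lay below it in 3D and 3M. As shares of the summed alpha levels, Lama5 made up 49.6% in wild type and 50.9%, 53.5% and 54.9% in 3C, 3D and 3M.

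Lama3 (chr18:12333417-12583013, plus strand), an alpha chain of the laminin that anchors skin and other epithelia, was close to the limit of what these libraries can measure. Wild type had 69 counts and clones 3C, 3D and 3M had 89, 60 and 75, or 3.62 CPM against 6.60, 4.12 and 4.84 CPM. The clones were all above wild type, but the counting intervals of the ratio reached below 1 in 3D and 3M, and the log2 fold change was 0.51 (SE 0.32, 95% interval -0.29 to 1.31). Lama3 contributed between 0.524% and 0.777% of the summed alpha level in any library.

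Lamb1 and Lamc1 are the beta and gamma chains that pair with Lama1 as well as with Lama5. Lamc1 had 721 CPM in wild type and 796, 884 and 832 CPM in 3C, 3D and 3M. Lamc1 lies at chr1:153218922-153332786 on the minus strand and Lamb1 at chr12:31265146-31329644 on the plus strand. Lamc1 was higher in all 3 clones with one of the narrowest spreads of the 10 genes, and its log2 fold change was 0.22 (SE 0.07, 95% interval 0.029 to 0.40, edgeR adjusted p = 0.43). Lamb1 had 101 CPM in wild type and 73.2, 115 and 97.1 CPM in the clones, with 3C lowest and 3D highest. Its log2 fold change was -0.09 (SE 0.23, 95% interval -0.66 to 0.48), and without 3C it turned to 0.067.

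Per kb, Lamb1 had far fewer counts than Lamc1 in every library. The ratio of Lamb1 to Lamc1 was 0.117 in wild type (95% counting interval 0.112 to 0.123), 0.0767 in 3C (0.0718 to 0.0819), 0.109 in 3D (0.103 to 0.114) and 0.0973 in 3M (0.0922 to 0.103). The intervals of 3C and 3M lay below that of wild type, and that of 3D overlapped it. The size of the ratio depends on the length used, which these intervals do not cover. With the longest transcript as length, Lamb1 had 17.5 and Lamc1 94.7 CPM per kb in wild type. Lamb2, another beta chain, had 30.9 CPM in wild type and between 32.8 and 37.2 CPM in the clones.

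The collagen IV genes, Col4a1 at chr8:11198423-11312889 on the minus strand and Col4a2 at chr8:11312805-11449287 on the plus strand, showed the widest spread between clones. Col4a1 had 1253 counts in wild type and 1015, 369 and 681 counts in 3C, 3D and 3M, or 65.7 CPM against 75.3, 25.4 and 44.0 CPM. Col4a2 had 454 counts in wild type and 415, 172 and 283 counts in the clones, or 23.8 CPM against 30.8, 11.8 and 18.3 CPM. For both genes 3C lay above wild type, 3M below it and 3D lowest.

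As ratios to wild type, Col4a1 was at 1.15 in 3C (95% counting interval 1.05 to 1.25), 0.386 in 3D (0.343 to 0.434) and 0.669 in 3M (0.609 to 0.735). Col4a2 was at 1.29 (1.13 to 1.48), 0.497 (0.414 to 0.593) and 0.767 (0.659 to 0.892). No counting interval included 1, but the clones lay on both sides of wild type, and the log2 fold changes of -0.45 for Col4a1 (SE 0.51, 95% interval -1.71 to 0.81) and -0.24 for Col4a2 (SE 0.46, 95% interval -1.37 to 0.89) were smaller than their errors. Without 3D the log2 fold change of Col4a1 was -0.15 and that of Col4a2 was 0.033. Without 3C they were -0.92 and -0.66.

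Between the clones, Col4a1 differed 2.97-fold and Col4a2 2.60-fold from the highest to the lowest. The coefficient of variation between clones was 52.4% for Col4a1 and 47.5% for Col4a2. Over 9462 genes with a mean count of at least 100 the median was 6.51%, and 99.6% and 99.4% of these genes varied less than Col4a1 and Col4a2. Lama3, with a mean count under 100, had 24.6% and Lamb1 22.1%, while Nid1, Lama1, Lama5 and Sparc had between 9.72% and 14.3% and Lamc1 and Hspg2 5.27% and 4.50%.

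**Figure D3:**
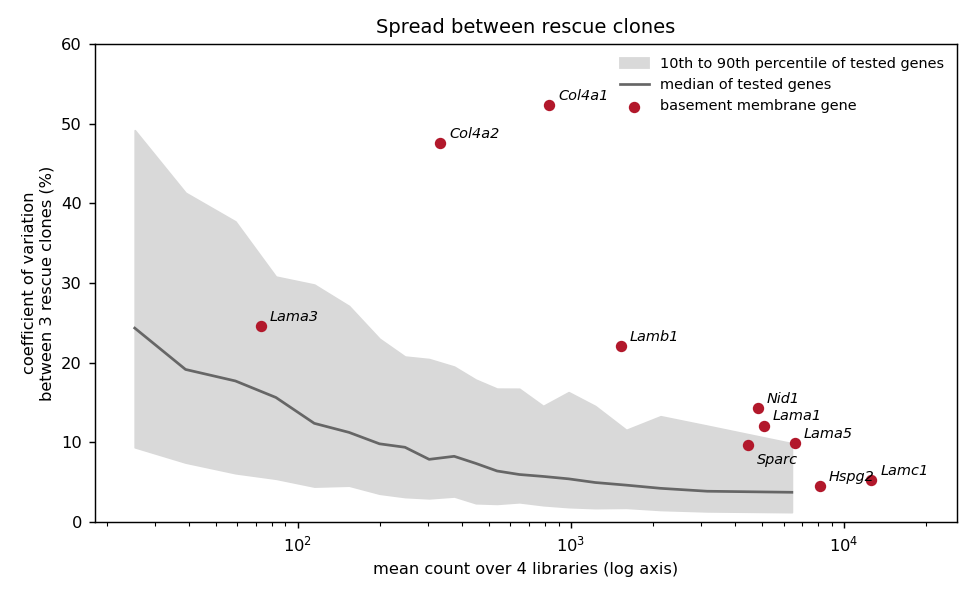
Coefficient of variation between the 3 rescue clones (%) against the mean count over the 4 libraries (log axis) for the basement membrane genes (red), with the median (line) and the 10th to 90th percentile (grey) of tested genes of similar count. Col4a1 and Col4a2 lie far above the grey band, at 52.4% and 47.5%, Lamb1 (22.1%), Nid1 (14.3%) and Lama1 (12.1%) lie above it too, and Hspg2 and Lamc1 lie close to the height at which the line ends.

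Although their levels differed, the ratio of the collagen chains varied less than either of them. Per kb, Col4a1 counts were 2.45 times those of Col4a2 in wild type (95% counting interval 2.20 to 2.73), 2.17 times in 3C (1.93 to 2.44), 1.90 in 3D (1.58 to 2.29) and 2.13 in 3M (1.85 to 2.46). The interval of each clone overlapped that of wild type. The other collagen IV chains, Col4a3 to Col4a6, had at most 0.37 CPM in any library.

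Summed over 27 endoderm markers, expression was 147 CPM in wild type and 220, 143 and 209 CPM in 3C, 3D and 3M. Among the clones this sum was highest in 3C and lowest in 3D, as were Col4a1 and Col4a2, but 3M lay above wild type in the sum and below it for both collagens. The order of the sum came from 1 marker, Rhox5, at 42.8 CPM in wild type and 117, 15.5 and 63.9 CPM in 3C, 3D and 3M. Without Rhox5, a sum added after the values were seen, the other 26 markers had 104 CPM in wild type and 102, 128 and 145 CPM in the clones, with 3C lowest among them. A median, in which each marker counts alike, was again highest in 3C and lowest in 3D. Over the 17 tested markers the median log2 difference from wild type was 0.59 in 3C, -0.24 in 3D and 0.53 in 3M. In every library 15 of the 27 markers were under 1 CPM, among them Gata6, Sox17 and Foxa2, and Ttr was at 0. Gata4 had 2.73 CPM in wild type and 4.15, 1.44 and 2.78 CPM in the clones. The part of these markers in the levels of the basement membrane genes was not tested, and in bulk RNA fewer cells of a type and less RNA per cell cannot be told apart.

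Nid1, which links the laminin network to collagen IV, had the largest log2 fold change of the 10 genes. It had 228 CPM in wild type and 380, 289 and 367 CPM in 3C, 3D and 3M, all above wild type, with a log2 fold change of 0.60 (SE 0.16, 95% interval 0.20 to 1.01, edgeR adjusted p = 0.33). DESeq2 gave an adjusted p of 0.059. Without clone 3D the change was 0.71, with an adjusted p of 0.00011 from edgeR.

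Nid1 lies on chromosome 13 (chr13:13437602-13512275, plus strand), and this chromosome was shifted as a whole in some of the clones. Over its 512 tested genes the median log2 difference from wild type was 0.48 in 3C, 0.026 in 3D and 0.48 in 3M. The log2 differences of Nid1 were 0.74, 0.34 and 0.69, so that after subtraction of the chromosome median they were 0.26, 0.32 and 0.21. Nid1 therefore stood above the median of its chromosome by a like amount in each clone, and the log2 fold change left after the median was 0.25. With the same subtraction Sparc (0.55), Lama3 (0.50) and Lama5 (0.31) were higher, so Nid1 no longer had the largest change. Of the 420 genes called without 3D, 141 lay on chromosome 13. The part of the chromosome shift in the level of Nid1 was not tested further.

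Relative to Lamc1, to which nidogen binds, Nid1 counts per kb were 0.376 in wild type (95% counting interval 0.363 to 0.389), 0.569 in 3C (0.550 to 0.588), 0.389 in 3D (0.376 to 0.403) and 0.525 in 3M (0.509 to 0.542). The ratio was thus near wild type in 3D and higher in 3C and 3M. It was not corrected for the chromosomes of the genes. The median log2 difference was 0.48, 0.026 and 0.48 in 3C, 3D and 3M on chromosome 13, which holds Nid1. On chromosome 1, which holds Lamc1, it was -0.0021, 0.013 and 0.013. Nid2, the second nidogen, had 426 CPM in wild type and 561, 495 and 510 CPM in the clones, with a log2 fold change of 0.29 (SE 0.09, edgeR adjusted p = 0.36). It lies on chromosome 14, where the median of all genes was between 0.34 and 0.35 above wild type in the 3 clones, and after subtraction of that median Nid2 was at 0.05, -0.13 and -0.08.

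Hspg2 (chr4:137468751-137570630, plus strand) varied least between the clones. It had 467 CPM in wild type and 514, 552 and 560 CPM in 3C, 3D and 3M, and its log2 fold change was 0.22 (SE 0.07, 95% interval 0.037 to 0.39, edgeR adjusted p = 0.42). Relative to Lamc1, its counts per kb were at 0.374 in wild type and at 0.373, 0.361 and 0.389 in the clones, and the counting interval of each clone overlapped that of wild type. Agrn, the other large heparan sulfate proteoglycan of basement membranes, had 216 CPM in wild type and between 199 and 215 CPM in the clones.

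Sparc (chr11:55394159-55420080, minus strand) had the lowest p-value of the 10 genes. It had 217 CPM in wild type and 346, 286 and 307 CPM in 3C, 3D and 3M, and the lowest clone was above wild type. The log2 fold change was 0.52 (SE 0.12, 95% interval 0.24 to 0.81, edgeR adjusted p = 0.25), and DESeq2 gave an adjusted p of 0.043. Its chromosome was not shifted (median log2 fold change -0.02), and without 3D the change was 0.58 with an adjusted p of 0.00097 from edgeR.

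Around these genes, 4 lists of the same pathway were read from the same test, where 10.3% of all genes had an unadjusted p under 0.05. Of 28 other basement membrane components, 16 were tested, none was called, and at an unadjusted p under 0.05 only Nid2 was picked, with a median log2 fold change of -0.01. Fibronectin (Fn1), a cell adhesion protein of the extracellular matrix, was the most abundant by CPM, at 2371 CPM in wild type and 1707, 2510 and 1900 CPM in 3C, 3D and 3M, on both sides of wild type. Without 3D, the clone above wild type, edgeR called Fn1 lower, at -0.40 with an adjusted p of 0.0027. Col18a1, which carries endostatin, had 264 CPM in wild type and between 184 and 263 CPM in the clones. The largest log2 fold changes in this list, 1.16 for Tinagl1, 0.83 for Lama4 and -0.70 for Smoc1, belonged to genes of at most 5.09 CPM and had SEs between 0.30 and 0.88.

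Proteins that fold, modify, export or cross-link collagens and laminins gave the most picks in both directions. Of 25 tested from a list of 29 genes in the tables, none was called, 5 were higher and 3 lower at an unadjusted p under 0.05, and the median log2 fold change was 0.12. Higher values were seen for the endoplasmic reticulum chaperone Hsp90b1, at 781 CPM in wild type and between 885 and 928 CPM in the clones (0.22), for the disulfide isomerase Pdia3 (0.28), for the cross-linking enzymes Loxl2 (1.22) and Tgm2 (1.12), and for Crtap of the prolyl 3-hydroxylation complex (0.42). Lower values were seen for the collagen chaperone Serpinh1, at 42.1 CPM in wild type and 27.3, 28.9 and 25.9 CPM in 3C, 3D and 3M (-0.62, SE 0.11, edgeR adjusted p = 0.19), for the collagen chaperone Fkbp10 (-0.46) and for peroxidasin (Pxdn), which cross-links collagen IV (-0.43). Loxl2 lies on chromosome 14 and was at 0.87 after subtraction of its chromosome's median. Loxl4, a cross-linking enzyme of the same family, had the largest change of the list, 1.53, with an SE of 0.78 and at most 3.56 CPM in any library. P4hb, the beta subunit of prolyl 4-hydroxylase, had 286 CPM in wild type and between 294 and 307 CPM in the clones. Without 3D, edgeR called Serpinh1 lower and Tgm2 higher. Crtap, Fkbp10, Pxdn and Serpinh1 were named after their values were seen.

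Of 34 receptors and linkers in the tables, 33 were tested and none was called. With 4 higher and none lower at an unadjusted p under 0.05, the picks were near the share of 10.3% over all genes. The median log2 fold change was 0.10. The main laminin receptor of ES cells, the integrin of Itga6 and Itgb1, had values near wild type, with log2 fold changes of -0.0058 (SE 0.12) and 0.07 (SE 0.09). Rpsa, a ribosomal protein also described as a laminin receptor, had 841 CPM in wild type and between 809 and 880 CPM in the clones. The genes picked were Itga5 (0.40), Itgav (0.42), Parva (0.55) and Vcl (0.47), of which Vcl lies on chromosome 14 and was at 0.12 after subtraction of its median. Without 3D, edgeR called Itga5 and Vcl. Itga5, Itgav and Vcl were named after their values were seen. Itgb4 and Gpc4, named for their size of change, had log2 fold changes of 0.50 (SE 0.24) and 0.48 (SE 0.26).

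Of 29 matrix proteases and inhibitors, 25 were tested and none was called by edgeR. With 2 higher at an unadjusted p under 0.05, the picks were near the share of 10.3% over all genes. The median log2 fold change was 0.20. Htra1, a secreted serine protease that cleaves matrix proteins, had 19.2 CPM in wild type and 49.3, 40.0 and 51.2 CPM in 3C, 3D and 3M. The lowest clone was far above wild type, with a log2 fold change of 1.29 (SE 0.17, edgeR adjusted p = 0.17), and DESeq2 called it. Ctsb, a lysosomal protease on chromosome 14, was at 0.49, and at 0.13 after subtraction of its chromosome's median. Without 3D, edgeR called Htra1 and Ctsb. The abundant Sulf2 and Ctsd had log2 fold changes of 0.12 and 0.20, and Adamts1 and Plau, at most 8.78 CPM in any library, had 1.89 (SE 0.83) and 1.12 (SE 0.55, and 0.76 less the median of chromosome 14).

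**Figure D4:**
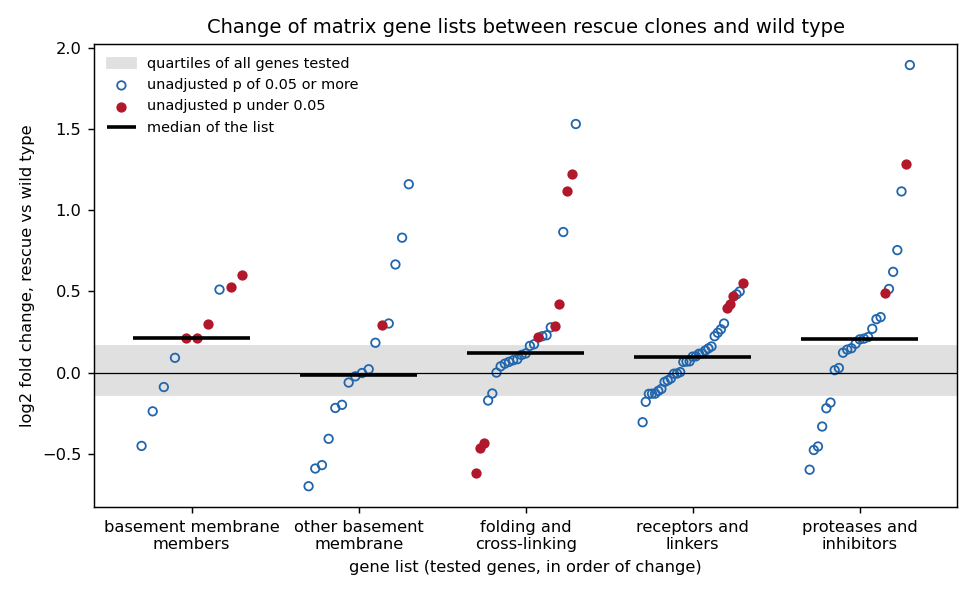
Log2 fold change of rescue over wild type (edgeR) for the basement membrane genes and for the tested genes of 4 fixed lists, with filled points for an unadjusted p under 0.05, bars at the median of each list and a grey band for the quartiles of all genes tested (-0.14 to 0.16). The medians of the basement membrane genes (0.22) and of the proteases and inhibitors (0.20) lie just above the band, and the other 3 lie inside it.

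Genes whose centred log2 CPM over the 4 libraries came nearest to the mean profile of the 10 genes were Rbms2 (Euclidean distance 0.015), Atad2b (0.026), Mrm1 (0.028), Iqgap2 (0.034), Pex13 (0.035), Plxnb2 (0.038), Fam63a (0.040), Itpripl1 (0.045), Atg2a (0.047) and Zfp213 (0.050). Their log2 fold changes lay between 0.11 and 0.16. Lama1 was the nearest of the members to their own mean, at 0.054, followed by Lama5 at 0.22. Col4a1 was the farthest, at 1.04, where the mean profile itself spanned 0.39 log2 units over the libraries. Rbms2 was lower in 3D (84.0 CPM) than in wild type (89.5 CPM), whereas the median of the members in 3D was above wild type (0.18). The named genes are thus like the mean profile and Lama1, and not like the members in general. Against the mean of Col4a1 and Col4a2 alone, a comparison added after their spread was seen, Fbxo2 came nearest (0.064), followed by Soga3 (0.17) and 2410141K09Rik (0.19). Vim, which encodes vimentin, was also among the 10 nearest (0.33), at 42.9 CPM in wild type and 57.5, 25.5 and 37.8 CPM in 3C, 3D and 3M. With 4 libraries, such likeness is a description only.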

How the data were processed

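Strand-specific RNA-seq read pairs of 3 rescue clones and 1 wild-type culture, after rRNA depletion, had been aligned by the authors with STAR to mm10, and the deposited tables hold raw counts of read pairs per gene. Which gene models were counted is not given in the sources used. As the library kit is directional, the reverse-strand column was taken. Its forward counterpart contained 1.26% to 1.31% of that number. Rows that name no gene (47.3% of read pairs in wild type, between 53.0% and 54.9% in the clones) stayed out of library sizes and tests.

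Tests used edgeR 4.0.16 under R 4.3.3 (quasi-likelihood, TMM, filterByExpr) over all genes at an adjusted p of 0.01, with DESeq2 1.42.0, limma-voom (limma 3.58.1) and other settings as alternatives. CPM use TMM-scaled library sizes. Log2 differences of single clones have a prior count of 2. The SE is the log2 fold change over the square root of F. Exact (Clopper-Pearson) 95% intervals on counts cover counting error only. Nothing states separate experiments for the clones beyond their clonal origin, so p-values measure the spread between these samples. Exon lengths came from GENCODE vM21 transcripts for 23681 genes, and positions from RefSeq for GRCm38.p6 (22542 symbols matched directly, 1352 by a synonym, 160 not). The test was checked on simulated counts.

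The members, lists and settings were chosen with earlier results of these data known. In each list the genes past the threshold, the 3 most abundant and the 3 with the largest change were to be named, with the 10 genes of most similar pattern. Genes of marker lists are named only where a result touches them. Marker lists covered endoderm, pluripotent cells, trophoblast, mesoderm, epiblast and neural cells, fibroblasts and endothelium.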

Additional observations from a re-analysis of the deposited data

Results flagged for a closer look

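The forward-strand column, which no comparison above uses, held a signal at Morc3 that was far above wild type. Forward counts were 7 of 3072 stranded counts in wild type (0.228%, exact 95% interval 0.0917% to 0.469%) and 1963 of 10793 in 3C (18.2%), 2001 of 9226 in 3D (21.7%) and 2266 of 11703 in 3M (19.4%). The basement membrane genes had between 0 and 22 forward counts in any library, and none of them was above wild type in all clones beyond the counting intervals.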

How the results depend on the processing

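Of 274 recomputed values, 251 stayed as reported in direction and call, or within their spread. Over all genes tested, 1 was called, and this became 64 with DESeq2 and 0 with limma-voom, with edgeR's legacy method and with at least 10 counts in every library. Leaving out 1 clone gave between 0 and 420 calls over all genes and between 0 and 3 among the basement membrane genes, where 3D was the clone that mattered: without it Lama5 was at 0.37, Nid1 at 0.71 and Sparc at 0.58, all past the threshold. In the same way the calls ranged from 0 to 1 for other basement membrane components and from 0 to 2 each for folding and cross-linking proteins, receptors, and proteases, and DESeq2 called 1 protease gene. The median log2 fold change of the folding list, 0.12, was 0.17 in the unstranded column and between 0.14 and 0.15 with 1 clone left out. With 1 clone left out, Col4a2 ranged from -0.66 to 0.033 (without 3D) and Lamb1 from -0.25 to 0.067 (without 3C), so both changed sign, and the cause was not tested. With the longest transcript, of GENCODE in place of the RefSeq lengths first planned, Sparc ranked 1 and Lamc1 2 by level. The fit without 3D takes its spread from 3C and 3M, the clones most alike over all genes, so its calls hold for that pair only. No paired analysis was possible because wild type has 1 library. Depth limits Lama3 most.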

Other observations

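The marker lists were read from the same edgeR test, which called none of their genes at an adjusted p of 0.01. Here too the calls depended on 3D. Without it, edgeR called Nanog (log2 fold change 0.66), Klf5 (0.47), Krt8 (1.05) and Krt19 (1.45) higher and Tubb3 (-0.72) lower. Over all genes tested, 10.3% had an unadjusted p under 0.05. Of 17 genes of pluripotent ES cells, all tested, 4 were higher and 1 lower at an unadjusted p under 0.05, with a median log2 fold change of 0.06. Nanog had 300 CPM in wild type and 468, 358 and 481 CPM in 3C, 3D and 3M, and the lowest clone was above wild type. Klf5, on chromosome 14, had 372 CPM in wild type and between 496 and 540 CPM in the clones, and DESeq2 called it. Its log2 differences of 0.52, 0.54 and 0.42 in 3C, 3D and 3M were 0.17, 0.19 and 0.07 after subtraction of the chromosome's median. Of 12 trophoblast genes, 8 were tested and 2 were higher, with a median log2 fold change of 0.52 and a range from -0.18 to 1.82. The keratin Krt8, 1 of those picked, had 8.55 CPM in wild type and 19.5, 12.6 and 15.9 CPM in the clones.

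Of 27 endoderm genes, 17 were tested, 4 were higher and none lower at an unadjusted p under 0.05. The median log2 fold change of the 17 was 0.52, with a range from -1.02 to 1.82. Krt19, a keratin also found in other epithelia, had 10.7 CPM in wild type and 20.5, 28.8 and 37.8 CPM in 3C, 3D and 3M, and DESeq2 called it. Of 11 epiblast and neural genes, 7 were tested and 2 were lower, and the tubulin gene Tubb3 had 73.8 CPM in wild type and 49.3, 40.8 and 40.5 CPM in the clones and was called by DESeq2. Of 10 mesoderm, 15 fibroblast and 6 endothelial genes, 2, 4 and 4 were tested and none had an unadjusted p under 0.05. The fibroblast genes Col3a1 and Dcn were at 0 counts in every library.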
